A study of Saccharomyces cerevisiae with 24 samples.

Results

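The genes described here encode 10 mannoproteins of the yeast cell wall: TIP1, TIR1, TIR2, TIR3, TIR4, DAN1, CWP1, CWP2, SED1 and CCW14. They were taken by symbol from the 6612 transcripts of the deposited table, and all 10 were found. The set was chosen by a measured value of these libraries, the higher TIP1 level in K655/657R than in WT in YPD, so that values of the 10 genes in that comparison are descriptions without a test. The study measured poly(A) RNA of budding yeast by RNA-seq to follow how the transcription factor Sfp1 and its acetylation act on gene expression when the carbon source changes. Strain K655/657Q carries SFP1-K655Q-K657Q, in which glutamine resembles an acetylated lysine, K655/657R carries SFP1-K655R-K657R, in which arginine cannot be acetylated, and WT carries unchanged SFP1. By their labels, all 3 strains hold the MYC::KanMX tag on SFP1 and share the markers ade2-1, ura3-1, trp1-1 and mutant alleles of his3, leu2 and can1. In the strain list of the study, the MYC::KanMX strains of both mutant forms carry no ade2-1 or can1 marker. For unchanged SFP1 the list has a MYC::KanMX strain without these markers. It also has another on a background with them, which holds a plasmid for SFP1 overexpression. The labels and that list were not reconciled. Each strain was sampled in 2 replicates in medium with 2% raffinose as the carbon source, at 15 min and 30 min after glucose had been added to 2%, and in YPD with 2% glucose, the medium in which all cultures had been grown before the shift. Whether the replicates were separate cultures is not given in the sources used here, and each strain stands for a single genotype.

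Mannoproteins form the outer layer of the yeast wall, outside a mesh of glucan and chitin. Proteins of this kind enter the secretory pathway by an N-terminal signal peptide, receive short mannose chains on serine and threonine, and carry a C-terminal signal for a GPI anchor, from which most are transferred to wall glucan. Tip1 and the Tir proteins belong to the Srp1/Tip1 family of serine- and alanine-rich wall proteins. TIP1 and TIR1 are known as cold-shock genes, and TIR1 to TIR4 and DAN1 as genes used in anaerobic growth, in which the wall is rebuilt and Cwp1 and Cwp2 are replaced by Tir and Dan proteins. Cwp1 and Cwp2 are structural proteins of aerobic walls, Sed1 is a major stress-induced wall protein of stationary cells, and Ccw14 lies in the inner layer of the wall.

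The proteins share a composition that goes with the class by which they were grouped, so it is a description of the set. In translations of the R64 reference, serine and threonine made up 27.2% (CWP2) to 42.4% (CCW14) of the residues, above the median of 13.8% over 6027 coding sequences. All 10 genes have 1 exon and encode 92 (CWP2) to 487 (TIR4) residues, with 11 to 15 hydrophobic residues (A, V, L, I, M, F, W or C) among the first 20 and 14 to 16 among the last 20. TIR1 and TIR2 were the most alike, with 69.6% identity over their alignment. TIP1 and TIR1 had 41.8% identity and TIP1 and SED1 16.3%. Reads of such relatives could be misassigned where the genes are identical over long stretches. TIR1 and TIR2 shared 1.8% of their 31-base words, and no other member shared any with another coding sequence. TIP1 (YBR067C) lies at chrII:372103-372735 on the reverse strand, and TIR1 (YER011W, chrV:175248-176012), TIR3 (YIL011W, chrIX:333727-334536), CWP1 (YKL096W, chrXI:261132-261851) and SED1 (YDR077W, chrIV:600793-601809) lie on the forward strand, each a single coding exon in R64. CWP2 and CWP1 lie in tandem on chromosome XI with 1600 bases between them, and TIR4 and TIR2 face each other on chromosome XV with 396 bases between their ends.

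The windows that follow end 101 bases before the start codon of the 4 genes with the widest ranges between libraries (CWP1, TIR1, TIR3 and TIP1), chosen after the values were seen so that a reader can see the DNA next to the genes whose values are given below. They are 300 bases of the S288C reference R64 with the RefSeq annotation, printed 5′ to 3′ on the strand of the gene, and capitals mark ATTGTT or its reverse complement AACAAT, the core letters bound by Rox1, the repressor of hypoxic genes.
TIP1 upstream, chrII:372836-373135 (reverse strand): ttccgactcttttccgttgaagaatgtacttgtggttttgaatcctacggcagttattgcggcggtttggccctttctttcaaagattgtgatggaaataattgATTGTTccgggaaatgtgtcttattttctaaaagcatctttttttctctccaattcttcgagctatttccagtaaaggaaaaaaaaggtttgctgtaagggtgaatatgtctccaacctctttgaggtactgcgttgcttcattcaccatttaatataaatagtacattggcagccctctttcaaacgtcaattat
TIR1 upstream, chrV:174848-175147 (forward strand): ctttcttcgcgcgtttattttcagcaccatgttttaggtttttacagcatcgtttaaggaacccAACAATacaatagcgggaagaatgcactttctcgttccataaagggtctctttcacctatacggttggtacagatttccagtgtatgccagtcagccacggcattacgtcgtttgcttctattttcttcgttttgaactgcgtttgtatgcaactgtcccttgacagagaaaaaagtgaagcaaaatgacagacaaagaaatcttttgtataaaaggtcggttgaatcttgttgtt
TIR3 upstream, chrIX:333327-333626 (forward strand): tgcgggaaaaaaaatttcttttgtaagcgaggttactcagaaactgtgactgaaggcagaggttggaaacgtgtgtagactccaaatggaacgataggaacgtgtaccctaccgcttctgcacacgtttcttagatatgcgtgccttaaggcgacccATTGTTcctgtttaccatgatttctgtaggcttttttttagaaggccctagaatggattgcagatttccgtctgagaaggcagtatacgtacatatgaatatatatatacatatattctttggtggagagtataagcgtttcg
CWP1 upstream, chrXI:260732-261031 (forward strand): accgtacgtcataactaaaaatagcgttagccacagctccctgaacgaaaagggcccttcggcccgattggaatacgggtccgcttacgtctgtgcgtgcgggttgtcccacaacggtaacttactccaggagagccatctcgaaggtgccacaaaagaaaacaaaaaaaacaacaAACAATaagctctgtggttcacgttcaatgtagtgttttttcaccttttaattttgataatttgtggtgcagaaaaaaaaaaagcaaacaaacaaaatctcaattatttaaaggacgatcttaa
The core occurred on either strand in the windows of 6 of the 10 genes (TIP1, TIR1, TIR3, TIR4, DAN1 and CWP1) and in 31.9% of 6026 windows of the same length over all genes. TCGTATA, the core bound by the sterol and anaerobic regulator Upc2, occurred in 2 windows (DAN1 and CWP2; 4.6% of all), AGGGG, bound by the stress factors Msn2 and Msn4, in 1 (SED1; 23.5% of all), and CGCGAAA, bound by the cell cycle factor SBF, in 1 (CWP2; 4.5% of all). AAAATTTT, an element associated with Sfp1, was in none of the 10 windows and in 9.0% of all. None of these motif letters overlapped another. A match is a description of the letters and not a measured binding site.

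Scaled TPM are the deposited TPM over the median-of-ratios size factor of their library. TPM are per transcript length, so levels can be set side by side between genes. Each library sums to the same total, and its depth and counting error are not known. Tests used limma on log2(scaled TPM + 1) over 23 libraries and the 6363 genes whose TPM averaged 1 or more. A called gene had both a 1.5-fold change or larger and a p, adjusted after Benjamini and Hochberg, under 0.05. The root mean square difference of log2 values was 0.16 to 0.24 between replicates. It was 0.77 for K655/657R 30 min, whose replicate 2 was left out, so that 1 library remained in that group, with values but no test. SFP1 itself had 15.6 ± 1.25 scaled TPM in K655/657Q, 10.8 ± 0.11 in K655/657R and 12.0 ± 0.65 in WT in YPD (SD, n = 2 each), and the codon changes themselves cannot be seen in TPM.

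The 10 genes ranged from rank 8 to rank 6360 of 6612 transcripts by mean TPM. CWP2 had a mean of 14441 TPM over the 23 libraries, rank 8 of 6612 transcripts, followed by SED1 with 2904 TPM, TIP1 with 1703 TPM and CCW14 with 956 TPM. CWP1 (107 TPM), TIR3 (54.7 TPM) and TIR1 (29.2 TPM) had intermediate levels, and TIR2 (9.79 TPM) and TIR4 (6.47 TPM) low ones. DAN1 averaged 0.993 TPM, just under the filter, and was tested in no comparison, so that 9 of the 10 genes passed. Together the genes took 2.73% to 3.31% of all TPM in raffinose, 1.55% to 1.81% at 15 min, 1.47% to 1.77% at 30 min and 1.60% to 1.87% in YPD. CWP1 differed 28.6-fold between its highest and lowest library and TIR1 25.4-fold, whereas CWP2 and CCW14 stayed within 2.10-fold and 2.06-fold and TIR2 within 1.60-fold.

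**Figure D1:**
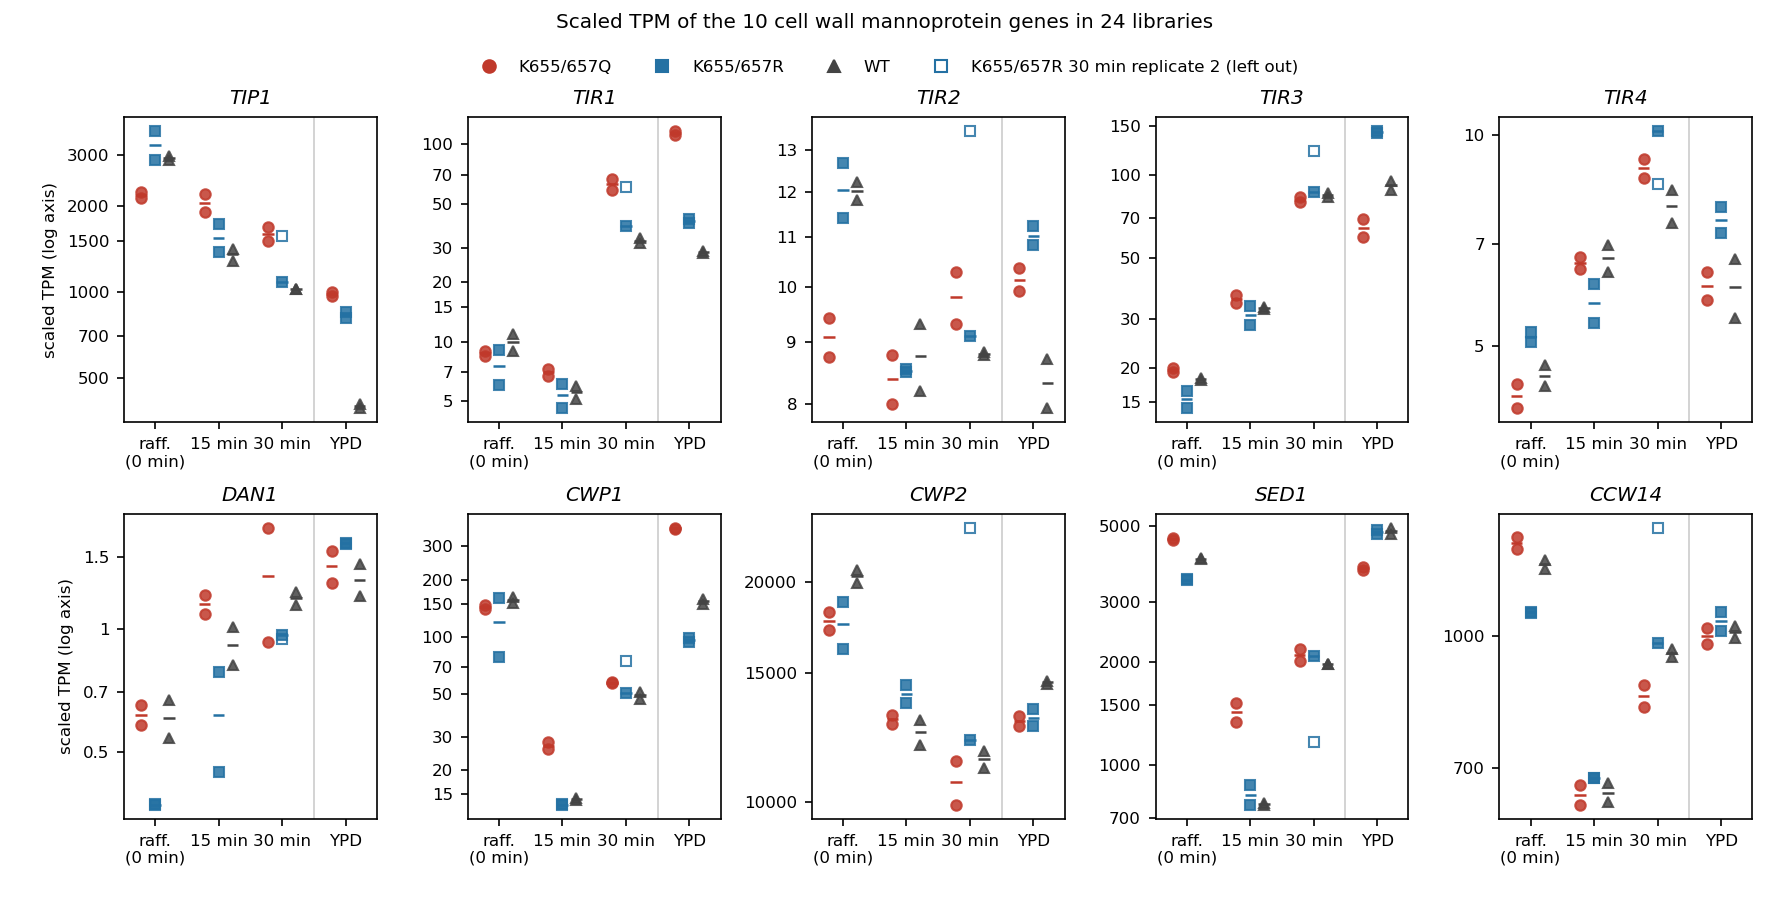
Scaled TPM (log axis, 1 panel per gene) in raffinose, at 15 and 30 min after glucose addition and in YPD, for K655/657Q (circles), K655/657R (squares) and WT (triangles). Each point is 1 library, short lines are group means, and the open square is the library left out; CWP1, TIR1 and TIR3 span the widest ranges and TIR2 and CCW14 the narrowest.

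The first comparison asked how the genes differed between raffinose and glucose. TIR1 and TIR3 fell in raffinose in every strain, TIP1 was the gene with the largest difference in the other direction, and CWP1 was called lower in K655/657Q, where its YPD level was highest. TIR3, a Tir protein needed for anaerobic growth, had 19.3 and 19.9 scaled TPM in raffinose against 68.9 and 59.5 in YPD in K655/657Q. In K655/657R it had 14.3 and 16.5 in raffinose against 142 and 144 in YPD, and in WT 18.4 and 18.1 against 88.2 and 95.2. No raffinose library reached any YPD library of the same strain, an order that calls of this size largely imply. The log2 fold change was -1.66 (SE 0.086, adjusted p = 6.7e-10) in K655/657Q, -3.14 (SE 0.086, adjusted p = 2.7e-13) in K655/657R and -2.27 (SE 0.086, adjusted p = 8.5e-12) in WT. TIR1 had 8.49 and 9.04 scaled TPM in raffinose against 117 and 111 in YPD in K655/657Q. It had 6.06 and 9.10 against 39.9 and 41.8 in K655/657R and 10.9 and 8.99 against 28.8 and 28.1 in WT. Its raffinose libraries overlapped between the 3 strains and its YPD libraries did not. The log2 fold changes were -3.56 (adjusted p = 4.1e-11) in K655/657Q, -2.31 (adjusted p = 1.7e-09) in K655/657R and -1.43 (adjusted p = 3.2e-07) in WT.

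TIP1 was high in raffinose. In K655/657Q it had 2227 and 2118 scaled TPM in raffinose against 1001 and 964 in YPD, a log2 fold change of 1.14 (SE 0.11, adjusted p = 6.2e-07). In K655/657R it had 3648 and 2887 in raffinose against 809.6 and 849.9 in YPD, and in WT 2969 and 2889 against 391 and 406. Those are ratios of 3.94 and 7.34, given without a test because the YPD libraries of both strains chose the genes. CWP1, a structural protein of the wall, fell in K655/657Q, with 147 and 139.7 scaled TPM in raffinose against 372 and 376 in YPD and a log2 fold change of -1.38 (SE 0.20, adjusted p = 3.4e-05). In K655/657R the raffinose replicates were apart, with 161 and 78.3 against 94.0 and 99.3 in YPD, and in WT the values were 162 and 152 against 158 and 150.1. Neither strain passed the test for CWP1 (log2 fold change 0.21, adjusted p = 0.35 in K655/657R, and 0.024, adjusted p = 0.92 in WT). CWP2, the most abundant of the genes, was 1.37, 1.34 and 1.40 times its YPD level in K655/657Q, K655/657R and WT, with adjusted p of 1.2e-04, 1.4e-04 and 3.7e-05 but under the fold threshold. SED1, the stress-induced wall protein, differed by 0.28 in K655/657Q, -0.47 in K655/657R and -0.27 in WT on the log2 scale, also under it. TIR4 differed by -0.48 to -0.35 and did not pass in any strain.

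In all, 1 of the 9 genes tested in K655/657Q rose and 3 fell, against 11.5% and 9.05% of all 6363 genes. In K655/657R and in WT, 2 of 8 tested genes fell and 0 rose, against 16.9% and 18.4% of all genes that fell and 17.4% and 19.0% that rose. The median log2 fold change of the genes in the fit, TIP1 included, was -0.14 in K655/657Q, 0.035 in K655/657R and 0.024 in WT, beside 0.0024, 0.025 and 0.028 over all genes. The split depended on the scaling. With TPM as deposited, which moved the median of all genes by 0.19, 0.40 and 0.37 in K655/657Q, K655/657R and WT, 2 genes rose and 3 fell in K655/657Q, 2 rose and 2 fell in K655/657R, and 3 rose and 2 fell in WT. With scaling to ACT1, which moved it by 0.55 in K655/657R and 0.64 in WT, 4 rose and 2 fell in both, and with upper quartile scaling 1 rose and 2 fell in WT. TIR1 and TIR3 fell in each strain under every alternative tried.

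**Figure D2:**
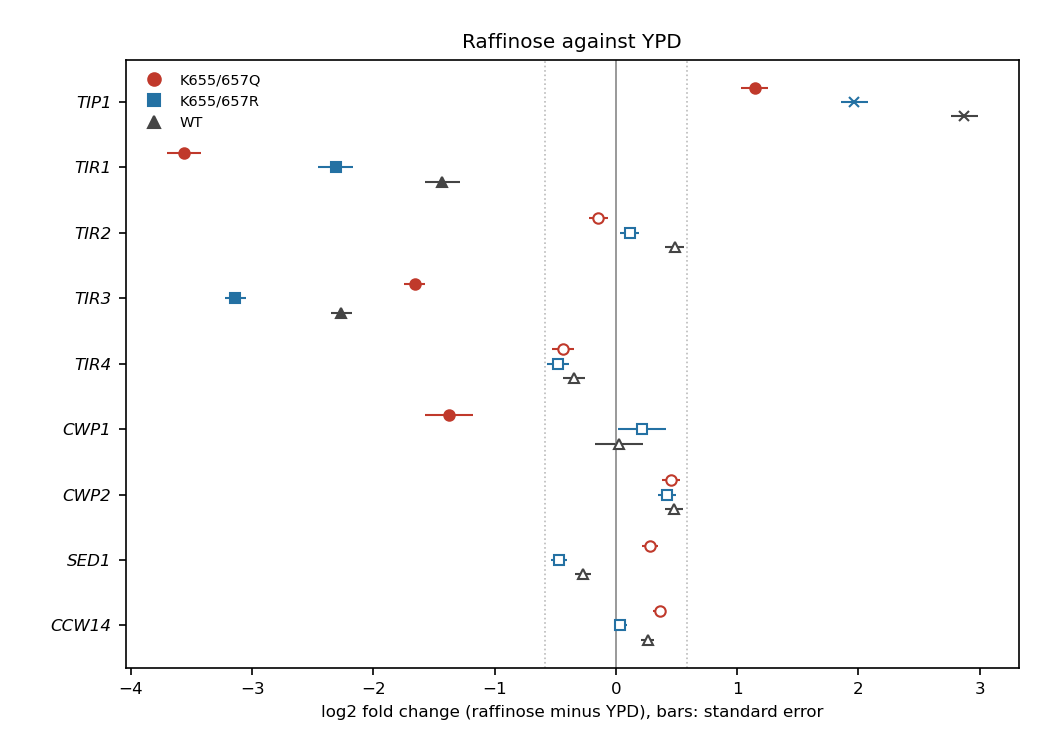
Log2 fold change of raffinose over YPD (x axis, points with standard errors) for the 9 genes above the filter in K655/657Q (circles), K655/657R (squares) and WT (triangles). Filled points were called, open points were not, crosses have no test, and dotted lines mark a fold change of 1.5; TIR1 and TIR3 lie on the negative side in all 3 strains and TIP1 on the positive side.

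The second comparison set the Sfp1 mutants against WT in YPD. In K655/657Q, TIR1 and CWP1 were higher than in WT and TIR3 was lower without passing the fold threshold. TIR1 had 117 and 111 scaled TPM in K655/657Q against 28.8 and 28.1 in WT, a ratio of 4.01 and a log2 fold change of 1.97 (SE 0.14, adjusted p = 6.0e-08). CWP1 had 372 and 376 in K655/657Q against 158 and 150.1 in WT, a log2 fold change of 1.27 (SE 0.20, adjusted p = 1.1e-04). Both K655/657Q replicates lay above both WT replicates for both genes, by far more than replicates differed. The calls largely imply this order, so it is no further support. TIR3 had 68.9 and 59.5 in K655/657Q against 88.2 and 95.2 in WT (log2 fold change -0.51, adjusted p = 2.2e-04). SED1 had 3707 and 3796 in K655/657Q against 4935 and 4726 in WT (-0.36, adjusted p = 4.7e-04). CWP2, CCW14 and TIR4 differed by -0.17, -0.016 and 0.0088. TIR2, the closest relative of TIR1, had 10.4 and 9.92 against 7.93 and 8.72 (0.26, adjusted p = 0.015), under the fold threshold. Of the 8 tested genes 2 rose and 0 fell, against 6.69% and 7.04% of all genes. TIP1 had 1001 and 964 in K655/657Q against 391 and 406 in WT, 2.46 times the WT level, without a test because the WT libraries chose the genes.

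In K655/657R in YPD the values are a description. TIP1, the gene behind the choice, had 809.6 and 849.9 scaled TPM in K655/657R against 391 and 406 in WT, a ratio of 2.08. TIR3 had 142 and 144 against 88.2 and 95.2, a ratio of 1.56, and TIR1 39.9 and 41.8 against 28.8 and 28.1, a ratio of 1.44. CWP1 had 94.0 and 99.3 in K655/657R against 158 and 150.1 in WT, 0.627 times the WT level. For TIR3 and CWP1 the K655/657R values were thus on the other side of WT from the K655/657Q values. TIR2 and TIR4 had ratios of 1.33 and 1.25, and CWP2, SED1 and CCW14 lay between 0.895 and 1.03 times WT. The comparisons of both mutants share the WT libraries.

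In raffinose no member was called between strains. With limma, 0 of 9 genes passed in K655/657Q against WT, where 4 had an unadjusted p under 0.05 and 3.57% of all genes were called in either direction. In K655/657R against WT 0 of 9 passed, 6 had an unadjusted p under 0.05 and 0.173% of all genes were called. TIP1 had 2227 and 2118 scaled TPM in K655/657Q against 2969 and 2889 in WT, a log2 fold change of -0.43 (SE 0.11, adjusted p = 0.014) that stayed under the fold threshold. TIR2 differed by -0.37 (adjusted p = 0.004) in K655/657Q. In K655/657R the log2 fold change of TIP1 was 0.15 (adjusted p = 0.56) and that of CWP1 -0.48 (adjusted p = 0.25), with CWP1 replicates of 161 and 78.3 in K655/657R against 162 and 152 in WT. Without K655/657R raffinose replicate 1, the library with the higher CWP1 value, the log2 fold change of CWP1 was -0.99. That value rests on 1 K655/657R library.

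Glucose was then added to cells in raffinose. At 15 min SED1, CWP1 and CCW14 had fallen in every strain, TIR3 had risen in every strain, and TIP1 had fallen in K655/657R and WT. SED1 had 4589.8 and 4529.7 scaled TPM at 0 min and 1332 and 1519 at 15 min in K655/657Q. In K655/657R it had 3492 and 3461 at 0 min and 767 and 873 at 15 min, and in WT 4012 and 4005 at 0 min and 773 and 764 at 15 min. The level at 15 min was 0.313, 0.236 and 0.192 of that at 0 min in K655/657Q, K655/657R and WT. The log2 fold changes were -1.68 (adjusted p = 8.2e-12), -2.09 (adjusted p = 4.8e-13) and -2.38 (adjusted p = 1.2e-13) in that order. CWP1 had 147 and 139.7 at 0 min and 28.1 and 25.8 at 15 min in K655/657Q, 161 and 78.3 at 0 min and 13.3 and 13.1 at 15 min in K655/657R, and 162 and 152 at 0 min and 14.0 and 14.3 at 15 min in WT. Its log2 fold changes were -2.37 (adjusted p = 3.8e-08), -2.99 (adjusted p = 1.9e-09) and -3.38 (adjusted p = 5.6e-10), the largest among the genes in each strain. CCW14, the inner-layer protein, changed less, by -0.98, -0.64 and -0.88, and its K655/657R call was lost with ACT1 scaling (-0.19, with the median of all genes moved by 0.42).

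TIR3 rose in this time, with 19.3 and 19.9 at 0 min and 34.3 and 36.7 at 15 min in K655/657Q, 14.3 and 16.5 at 0 min and 33.5 and 28.7 at 15 min in K655/657R, and 18.4 and 18.1 at 0 min and 32.7 and 33.3 at 15 min in WT. Its log2 fold changes of 0.82, 0.97 and 0.82 were close to each other. TIP1 had 2227 and 2118 at 0 min and 1894 and 2199 at 15 min in K655/657Q, and these groups overlapped. It had 3648 and 2887 at 0 min and 1718 and 1375 at 15 min in K655/657R, and 2969 and 2889 at 0 min and 1285 and 1415 at 15 min in WT, with no overlap in either strain. The log2 fold change was -0.090 (adjusted p = 0.49) in K655/657Q, -1.08 (SE 0.11, adjusted p = 3.4e-07) in K655/657R and -1.12 (SE 0.11, adjusted p = 2.4e-07) in WT. TIR1 and CWP2 fell in WT, with log2 fold changes of -0.74 and -0.71, and were at -0.28 and -0.45 in K655/657Q and -0.42 and -0.31 in K655/657R without being called. The WT calls were lost with ACT1 scaling (-0.57 for TIR1 and -0.50 for CWP2, with the median of all genes moved by 0.19), and that of TIR1 also with a pseudocount of 5 (-0.50). Over the 9 genes, 1 rose and 3 fell in K655/657Q (19.1% and 21.8% of all genes), 1 rose and 4 fell in K655/657R (22.4% and 24.4%), and 1 rose and 6 fell in WT (21.7% and 22.9%). With ACT1 scaling 2 rose and 3 fell in K655/657Q and 2 rose and 4 fell in WT. The median log2 fold change of the genes was -0.28, -0.45 and -0.74 in K655/657Q, K655/657R and WT, beside 0.012, 0.0019 and 0.018 over all genes.

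At 30 min TIR1, TIR3 and TIR4 stood above raffinose in K655/657Q and WT, and CWP1, CWP2 and SED1 below it. TIR1 had 8.49 and 9.04 scaled TPM at 0 min, 7.32 and 6.74 at 15 min and 59.0 and 66.6 at 30 min in K655/657Q. In WT it had 10.9 and 8.99 at 0 min, 5.97 and 5.13 at 15 min and 33.4 and 31.5 at 30 min. The level at 15 min was no higher than in raffinose, and that at 30 min was 7.17 times the raffinose level in K655/657Q and 3.26 times in WT (log2 fold change 2.71, adjusted p = 1.9e-10 in K655/657Q, and 1.62, adjusted p = 6.6e-08 in WT). TIR3 had 79.5 and 82.8 at 30 min in K655/657Q, a log2 fold change of 2.00 (adjusted p = 1.7e-11) over raffinose, and 82.9 and 86.0 in WT, one of 2.15 (adjusted p = 6.0e-12). TIR4 rose by 0.93 in K655/657Q and 0.69 in WT on the log2 scale, with 8.69 and 9.24 scaled TPM at 30 min in K655/657Q against 8.36 and 7.50 in WT, and the WT call was lost with a pseudocount of 5 (0.44) and with TPM as deposited (0.47). DAN1, an anaerobic gene, was low throughout, at 0.931 and 1.77 at 30 min in K655/657Q and 1.15 and 1.24 in WT.

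SED1 and CWP1 stood below raffinose at 30 min, with values above those at 15 min, a difference that was not tested. SED1 had 2014 and 2176 at 30 min in K655/657Q and 1976 and 1975 in WT, 0.459 and 0.493 of the raffinose level. CWP1 had 57.9 and 57.4 in K655/657Q and 51.7 and 47.4 in WT, with log2 fold changes of -1.30 (adjusted p = 3.0e-05) and -1.64 (adjusted p = 2.2e-06). TIP1 was at 1019 and 1019 at 30 min in WT (-1.52, adjusted p = 7.1e-09), and was at 1506 and 1679 in K655/657Q (-0.45, adjusted p = 0.0021), under the fold threshold. CWP2 fell in both strains (-0.74 in K655/657Q and -0.83 in WT on the log2 scale), though its K655/657Q call was lost with upper quartile scaling (-0.55) and ACT1 scaling (-0.33). CCW14 was called in K655/657Q alone (-0.59, and -0.34 in WT), a call close to the fold threshold that was lost with upper quartile scaling (-0.41) and ACT1 scaling (-0.18), without K655/657Q 30 min replicate 1 (-0.55) and without K655/657Q raffinose replicate 2 (-0.57). Over the 9 genes 3 rose and 4 fell in both strains, where 17.0% and 21.3% of all genes did in K655/657Q and 20.2% and 22.3% in WT. This split depended on the scaling as well. With upper quartile and with ACT1 scaling 3 rose and 2 fell in K655/657Q, where the median of all genes moved by 0.17 and 0.38, and with TPM as deposited 2 rose and 6 fell in WT, where it moved by -0.24.

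**Figure D3:**
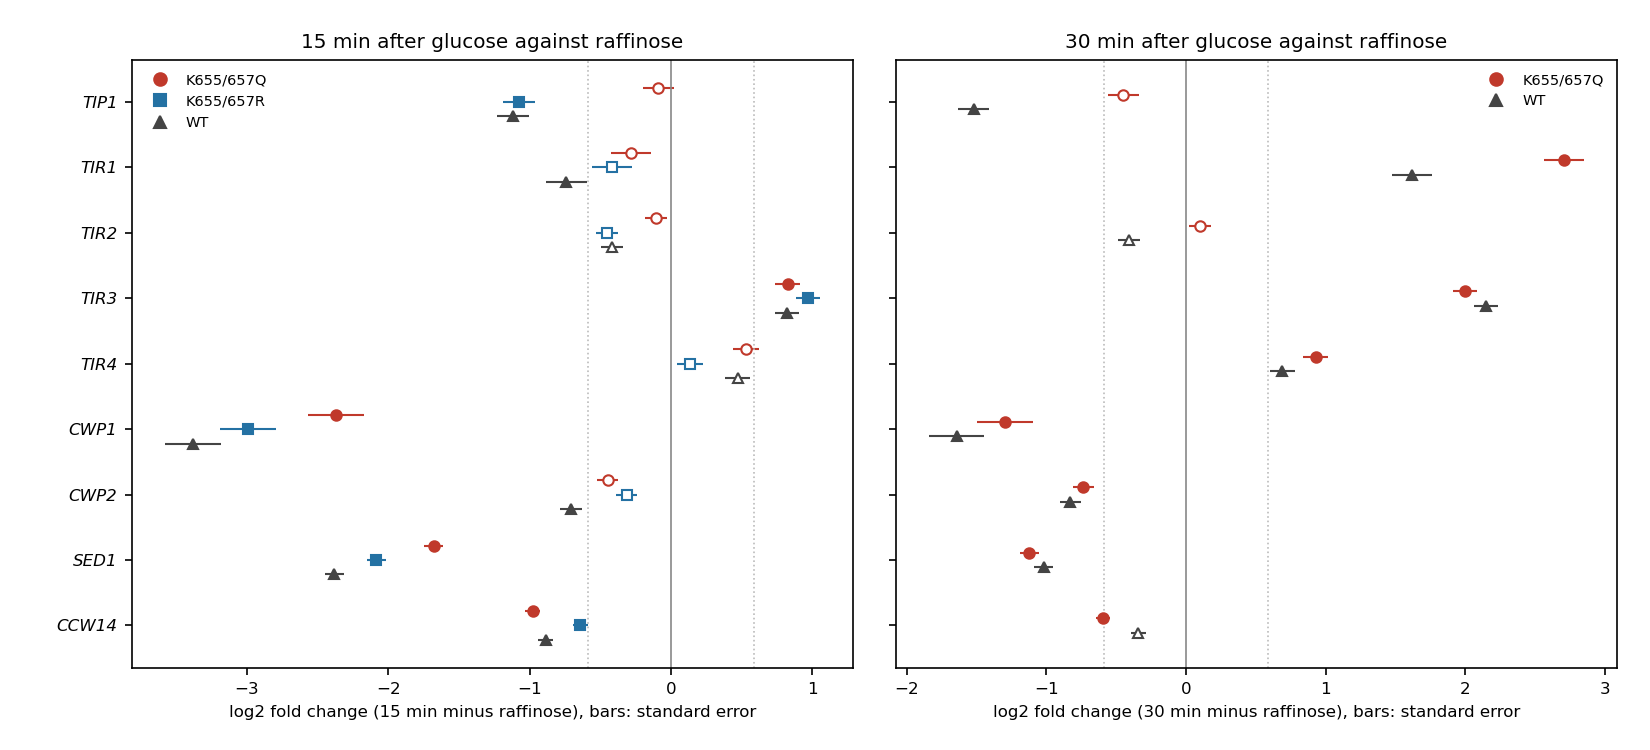
Log2 fold change over raffinose (x axis, points with standard errors) at 15 min (left) in K655/657Q (circles), K655/657R (squares) and WT (triangles) and at 30 min (right) in K655/657Q and WT, for the 9 genes above the filter. Filled points were called and dotted lines mark a fold change of 1.5; CWP1 and SED1 lie lowest at 15 min and TIR1 and TIR3 highest at 30 min.

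Between strains at these times, the genes that were called stood higher in K655/657Q than in WT. At 15 min SED1 had 1332 and 1519 scaled TPM in K655/657Q against 773 and 764 in WT, a log2 fold change of 0.89 (SE 0.067, adjusted p = 5.8e-07). CWP1 had 28.1 and 25.8 in K655/657Q against 14.0 and 14.3 in WT (0.88, adjusted p = 0.0049). TIP1 had 1894 and 2199 against 1285 and 1415 (0.60, adjusted p = 0.0013), which lay near the fold threshold and was not called without WT 15 min replicate 1 (0.53), without K655/657Q 15 min replicate 2 (0.49) or with ACT1 scaling (0.51). In each of the 3 genes both K655/657Q replicates were above both WT replicates, an order that their calls largely imply. At 30 min TIR1 had 59.0 and 66.6 in K655/657Q against 33.4 and 31.5 in WT (0.93, adjusted p = 3.3e-04). TIP1 had 1506 and 1679 against 1019 and 1019 (0.64, adjusted p = 8.6e-04), and its call was lost without K655/657Q 30 min replicate 2 (0.56). SED1 and CWP1 no longer differed by the fold threshold, at 0.083 (adjusted p = 0.42) and 0.21 (adjusted p = 0.49). At 15 min 3 of 9 genes were called higher and at 30 min 2 of 9, against 2.25% and 1.10% of all genes, and 0 were called lower at either time, against 2.48% and 2.78%.

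Between K655/657R and WT no gene of the set was called at 15 min. With limma 0 of 9 passed, against 0% of all 6363 genes called. At an unadjusted p under 0.05 there was 1 of the 9, and the share of all genes at that threshold was not computed. TIP1 had 1718 and 1375 in K655/657R against 1285 and 1415 in WT (0.19, adjusted p = 0.41), and SED1 767 and 873 against 773 and 764 (0.091, adjusted p = 0.52). At 30 min the 1 library of K655/657R had 1081 for TIP1, 38.6 for TIR1, 86.7 for TIR3, 50.7 for CWP1 and 2077 for SED1. For TIP1 and TIR1 these values lay between the WT libraries and the K655/657Q libraries.

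**Figure D4:**
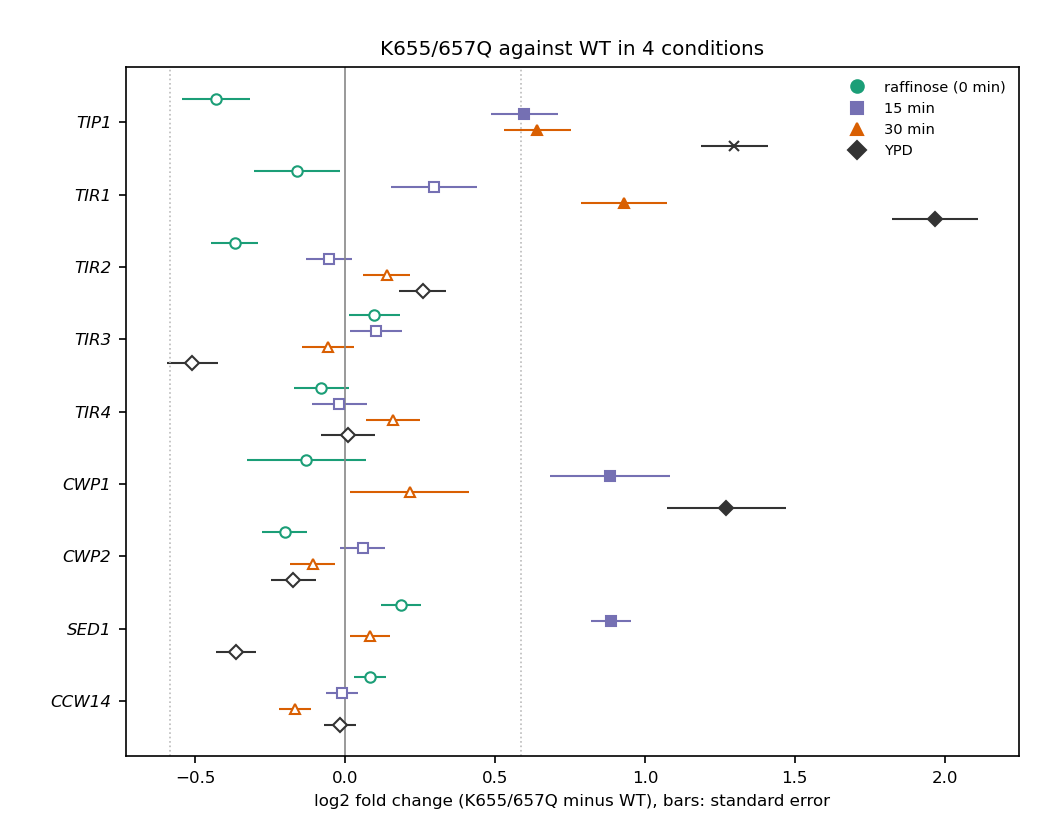
Log2 fold change of K655/657Q over WT (x axis, points with standard errors) for the 9 genes above the filter in raffinose, at 15 and 30 min after glucose addition and in YPD. Filled points were called, open points were not and the cross has no test; TIR1 differs most in YPD, SED1 and CWP1 lie beyond the dotted line (fold change of 1.5) at 15 min, and no gene was called in raffinose.

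The difference between the responses of K655/657Q and WT was tested by itself. For raffinose minus YPD, 1 of 8 genes had a larger value in K655/657Q and 3 a smaller one, against 10.7% and 9.40% of all genes. TIR1 had -3.56 in K655/657Q and -1.43 in WT, a difference of -2.13 (SE 0.20, adjusted p = 1.4e-06). CWP1 had -1.38 and 0.024, a difference of -1.40 (SE 0.28, adjusted p = 0.0011). TIR2 had -0.14 in K655/657Q and 0.48 in WT, a difference of -0.63 (adjusted p = 3.6e-04), and TIR3 -1.66 and -2.27, one of 0.61 (adjusted p = 0.0011). TIR2 and TIR3 lay near the fold threshold. The TIR2 call was lost with a pseudocount of 5 (-0.46), without K655/657Q raffinose replicate 2 (-0.58) or WT YPD replicate 1 (-0.57), and the TIR3 call without K655/657Q YPD replicate 2 (0.50), K655/657Q raffinose replicate 2 (0.58) or WT YPD replicate 2 (0.55). The TIR3 call was also lost with a pseudocount of 5 (0.57), upper quartile scaling (0.56), TPM as deposited (0.41) and ACT1 scaling (0.029), so that under the 3 other scalings no gene was called with a larger value in K655/657Q.

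For the response to glucose the called differences were all positive. At 15 min TIP1 changed by -0.090 in K655/657Q and -1.12 in WT, a difference of 1.03 (SE 0.16, adjusted p = 0.0011). SED1 changed by -1.68 and -2.38, a difference of 0.70 (SE 0.095, adjusted p = 4.2e-04). CWP1 changed by -2.37 and -3.38, a difference of 1.01 (SE 0.28, adjusted p = 0.048) that passed narrowly and was lost without any 1 of the 8 libraries of the comparison (adjusted p of 0.081 to 0.14), with a pseudocount of 5, with no filter on low values, with ACT1 scaling and with all 24 libraries (0.053 to 0.16). With all 24 libraries in the fit the SED1 difference was 0.70 with an adjusted p of 0.24. At 30 min TIP1 changed by -0.45 in K655/657Q and -1.52 in WT, a difference of 1.07 (SE 0.16, adjusted p = 4.9e-04), and TIR1 by 2.71 and 1.62, a difference of 1.09 (SE 0.20, adjusted p = 0.0027). With all 24 libraries the TIR1 difference had an adjusted p of 0.052. These are 3 and 2 of 9 genes, against 1.26% and 1.12% of all genes, and 0 had a called negative difference, against 1.65% and 2.92%. The 15 min response of K655/657R minus that of WT gave 0 of 9 calls with limma, against 0.141% of all genes called in either direction. At an unadjusted p under 0.05 there were 4 of the 9, and the share of all genes at that threshold was not computed. For TIP1 this difference of responses was 0.041 (SE 0.16, adjusted p = 0.92). Without K655/657R raffinose replicate 1, which leaves 1 library in that group, the difference for CWP1 was 0.90.

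At 30 min the genes had not all returned to their YPD levels. In K655/657Q TIP1 was higher at 30 min than in YPD by 0.69 (adjusted p = 5.4e-05) on the log2 scale, whereas TIR1 (-0.85), CWP1 (-2.68) and SED1 (-0.84) were lower. In WT CWP1 (-1.62) and SED1 (-1.29) were lower. With ACT1 scaling, which moved the median of all genes by 0.50 in K655/657Q and 0.86 in WT, the calls of TIR1 (-0.32) and SED1 (-0.30) in K655/657Q and of SED1 in WT (-0.32) were lost. TIR3 was not called in either strain. In K655/657Q it had 79.5 and 82.8 at 30 min against 68.9 and 59.5 in YPD, a log2 fold change of 0.34 (adjusted p = 0.0028) that stayed under the fold threshold. In WT it had 82.9 and 86.0 at 30 min against 88.2 and 95.2 in YPD, a log2 fold change of -0.12 (adjusted p = 0.23). In K655/657Q 1 of 9 genes rose and 3 fell (16.1% and 19.4% of all genes), and in WT 0 of 8 rose and 2 fell (22.5% and 25.4%). With ACT1 scaling 3 rose and 1 fell in K655/657Q and 6 rose and 1 fell in WT, and with TPM as deposited or upper quartile scaling 2 rose and 3 fell in K655/657Q. TIP1 had 1019 and 1019 at 30 min against 391 and 406 in YPD in WT, without a test.

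K655/657R 30 min replicate 2, the library left out, differed from its partner unequally across the genes. CWP2 had 23742 scaled TPM in it against 12172 in replicate 1, TIP1 1570 against 1081, TIR1 60.7 against 38.6 and CCW14 1337 against 982, whereas SED1 had 1170 against 2077. Its size factor was 0.562, against 0.802 to 1.14 in the others.

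Other genes of the wall were counted from lists by function. In raffinose against YPD, 6, 6 and 8 of 24 other GPI-type wall proteins rose in K655/657Q, K655/657R and WT and 3, 4 and 2 fell. Their median log2 fold changes were 0.28, 0.34 and 0.30. Of all 6363 genes 11.5%, 17.4% and 19.0% rose and 9.05%, 16.9% and 18.4% fell in these strains. The counts of this and the other lists were not tested against such shares. FIT2 and FIT3, mannoproteins that retain siderophore iron, differed most, with FIT2 at 854 scaled TPM in raffinose against 38.0 in YPD in K655/657Q, 948 against 20.9 in K655/657R and 1145 against 26.2 in WT. Of 9 hypoxic genes 2, 1 and 1 rose and 5, 6 and 6 fell in K655/657Q, K655/657R and WT, with medians of -0.68, -1.58 and -1.49 on the log2 scale. ANB1, an oxygen-repressed translation factor, fell, in the same direction as TIR1 and TIR3. Its log2 fold changes were -1.73 in K655/657Q, -4.46 in K655/657R and -3.76 in WT. OLE1 had the largest called change of the hypoxic genes in K655/657Q and went the other way. It had 991 scaled TPM in raffinose against 201 in YPD in that strain (log2 fold change 2.30, adjusted p = 7.3e-10). ROX1, the hypoxic repressor, had 26.5 scaled TPM in raffinose against 30.9 in YPD in K655/657Q, where it was not called (-0.20, adjusted p = 0.21), and rose in the other strains, with 39.1 in raffinose against 13.9 in YPD in K655/657R and 49.7 against 16.0 in WT. It is among 11 hypoxic and sterol regulators, of which 2, 2 and 3 rose and 0, 1 and 1 fell in K655/657Q, K655/657R and WT. SUT1, another of them, rose by more than ROX1 in K655/657Q (1.82) and WT (1.69).

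In YPD, K655/657Q against WT gave 4 rises and 0 falls among the 24 GPI-type wall proteins. Their median log2 fold change was 0.031, beside 0.0076 over all genes. Of all genes 6.69% rose and 7.04% fell in this comparison. AGA1, the anchor of the mating agglutinin, had 69.1 scaled TPM in K655/657Q against 15.8 in WT. Of 12 PIR and soluble wall proteins 1 rose and 3 fell, among them YGP1, a secreted glycoprotein of starved cells, with 151 against 810.3. Of 9 hypoxic genes 0 rose and 4 fell (median -0.55), among them ANB1 (log2 fold change -2.55) and HEM13, a heme biosynthesis enzyme (-1.27), while TIR1 was higher in the same libraries and TIR3 was not called. Of 11 hypoxic and sterol regulators 1 rose and 2 fell. ROX1 had 30.9 in K655/657Q against 16.0 in WT, and SUT1 went the other way, with 4.66 against 9.56. SLT2, the kinase of the wall integrity pathway, rose by 0.80, the 1 call among 12 genes of that pathway. Of 13 genes of glucan and chitin synthesis 0 rose and 2 fell, 1 of them GSC2, an inducible glucan synthase subunit (log2 fold change -1.59). Whether these genes have a part in the TIR1 and CWP1 levels was not tested.

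At 15 min after glucose 4, 3 and 3 of the 24 GPI-type genes rose and 9, 7 and 8 fell in K655/657Q, K655/657R and WT. Their medians were -0.26, -0.21 and -0.11 on the log2 scale. Of all genes 19.1%, 22.4% and 21.7% rose and 21.8%, 24.4% and 22.9% fell in these strains. SPI1, a stress-induced wall protein, fell beside SED1, with log2 fold changes of -1.28 in K655/657Q, -2.05 in K655/657R and -1.90 in WT and a response that differed between K655/657Q and WT (0.63, adjusted p = 0.0037), while UTR2, a chitin transglycosylase, rose by 1.46, 1.69 and 1.61 in K655/657Q, K655/657R and WT. In K655/657Q HPF1, another of the GPI-type genes, fell more than SPI1 (-1.51). PIR3, a wall protein with internal repeats, fell by a log2 fold change of -2.76, -2.56 and -2.42 in K655/657Q, K655/657R and WT. Of 15 mannosylation genes, which build the sugar chains of these proteins, 3, 6 and 6 rose and 2, 3 and 3 fell, with medians of 0.37, 0.49 and 0.51.

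Across the means of the 11 groups with 2 libraries, the genes formed no single pattern. SED1 correlated with CWP1 (r = 0.92) and CCW14 (r = 0.90), TIR3 with DAN1 (r = 0.93) and TIR1 (r = 0.76), and TIP1 inversely with TIR3 (r = -0.83). TIR1 and TIR2, the most similar proteins, had r = 0.14. Among genes averaging 10 TPM or more, those most like TIP1 were TAD3 (r = 0.947), TEN1 (r = 0.946), YAL063C-A (r = 0.923), YAT1 (r = 0.922) and SKS1 (r = 0.922). The points include the YPD groups whose TIP1 levels chose the genes. Those levels enter every TIP1 correlation and the list of genes most like TIP1, so neither is independent of that choice. These correlations share libraries and the carbon source between points and are a description of the groups.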

How the data were processed

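The authors trimmed reads with fastp 0.23.2, checked them with FastQC 0.11.9 and MultiQC 1.12, estimated TPM with kallisto 0.48.0 against R64 transcripts and deposited 1 TPM table of 24 libraries with 6612 transcripts. The libraries were poly(A)-selected and strand-specific. The authors tested differential expression with DESeq2 on counts, which are not used here, so depth is unknown and TPM were tested on a log scale.

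The members and gene lists were chosen with earlier results of these data known. TPM were divided by median-of-ratios size factors (0.802 to 1.14), and log2(scaled TPM + 1) was fitted with limma 3.58.1 in R 4.3.3 (lmFit, eBayes with trend), 1 mean per strain and condition, 11 residual degrees of freedom, Benjamini-Hochberg adjustment over the 6363 genes averaging 1 TPM or more. Fold changes understate those of genes near 1 TPM. Thresholds were those of the study. One library was left out as in the study. The fit was tested on simulated data. Alternatives changed the pseudocount, filter, scaling (TPM as deposited, upper quartile, ACT1), fold threshold, libraries fitted and replicate block, or left out each library in turn. Leaving out a library left 1 in its group of 2, so the spread then came from the other groups. For each list of other genes, those named were among the most changed called genes. ROX1 and SPI1 were picked apart from this and given also where they were not called or not the most changed. No 2 libraries held identical values. Sequences were read with Python 3.11.15 and biopython 1.88, and figures drawn with matplotlib 3.10.9. With 2 replicates per group, p-values rest on a spread pooled over all groups and drawn toward that of other genes. A gene thus has the same SE in every comparison of 2 groups. For CWP1 that spread includes the K655/657R raffinose replicates, which were apart (161 and 78.3 scaled TPM).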

Additional observations from a re-analysis of the deposited data

Results flagged for a closer look

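Differences between the responses of K655/657Q and WT that passed their own test are given here as values, on the log2 scale and as K655/657Q minus WT. For raffinose minus YPD they were -2.13 for TIR1, -1.40 for CWP1, -0.63 for TIR2 and 0.61 for TIR3. For 15 min minus raffinose they were 1.03 for TIP1, 1.01 for CWP1 and 0.70 for SED1. For 30 min minus raffinose they were 1.07 for TIP1 and 1.09 for TIR1. Each is a limma contrast of 4 groups with 2 libraries each. The raffinose libraries enter all of them, so they are not independent of each other. The groups are too small for a search for single outlying libraries.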

How the results depend on the processing

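Of 933 alternative values of the 60 called single-gene results, 890 kept their direction and their call, 43 kept the direction and lost the call, and 0 turned. Part of this was fixed in advance. Dropping the fold threshold cannot lose a call. Changing the filter, adding the replicate block or fitting the compared groups alone left the log2 fold change as it was. In those settings only the adjusted p could move, so these totals overstate how much was put to the test. Without the fold threshold the number of genes called was 8, 5 and 7 for raffinose against YPD in K655/657Q, K655/657R and WT, 5 and 2 for K655/657Q against WT in YPD and raffinose, 8 for 15 min against raffinose in K655/657R, and 8 and 4 for 30 min against YPD in K655/657Q and WT. The share of all genes called was not computed for this or the other alternative settings. Counts under such settings, here and above, therefore say nothing about the set relative to all genes. With TPM as deposited 4 and 5 genes were called for raffinose against YPD in K655/657R and WT. With ACT1 scaling these were 6 and 6, 30 min against YPD in WT gave 7 (6 higher and 1 lower, with the median of all genes moved by 0.86), and the 15 min response of K655/657R minus WT gave 1. A pseudocount of 5 gave 2 for the raffinose minus YPD response of K655/657Q minus WT, and all 24 libraries gave 1 and 1 for its 15 and 30 min responses. Leaving out single libraries gave 1 to 2 genes for K655/657Q against WT at 30 min, 0 to 1 for K655/657R against WT in raffinose, 2 to 4 for the raffinose minus YPD response of K655/657Q minus WT and 0 to 1 for the 15 min response of K655/657R minus WT. Whether replicates of the same number belong together is not known. Correlations of same-numbered deviations were -0.36 to 0.31, which cannot decide it. The tests treat samples as independent, also if the samples before and after glucose came from the same culture. With the replicate block, 1 shift shared by all groups, the number of genes called did not move in any comparison. An example is 4 for raffinose against YPD in K655/657Q. The causes were not tested. TPM carry no depth, so counting error could not be separated from the spread between 2 libraries, and the single calls lost most often were those of CWP1 in the 15 min response (12 settings) and TIR3 in the raffinose minus YPD response (7 settings) of K655/657Q minus WT.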
